A study of Mus musculus with 18 samples.

Results

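Neurotrophins are secreted growth factors that keep neurons alive and adjust their synapses, and the promoters of 6 genes of this system were examined for chromatin accessibility in the mouse brain. The genes were taken by name: the ligands Bdnf and Ntf3 (neurotrophin 3), the receptors Ntrk2 (TrkB), Ntrk3 (TrkC) and Ngfr (p75), and Nrn1 (neuritin), an activity-regulated protein of the neurite surface. Together they have 9 promoter windows among the 26065 windows measured, 4 of Bdnf and 1 of each other gene. All 9 windows passed the filter on low counts in every fit, and none overlapped another window of the table.

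Accessibility was measured by ATAC-seq, in which Tn5 transposase cuts open DNA and leaves sequencing adapters in it. The nuclei came from the central amygdala (CeA), a hub of learned fear, and from microdissected prefrontal cortex, of the C57BL/6J strain at 2 to 3 months of age, and made 18 libraries in 8 groups. SOM+ nuclei, sorted on a nuclear GFP of somatostatin neurons (SOMH2B-GFP mice labelled WT), came from control and from fear-conditioned mice, with 2 libraries per condition and region. Bulk nuclei, gated on a DNA stain alone, came from mice whose SOM+ cells carry the labelled Erbb4 knockout (KO), with 3 libraries in each region, and from mice titled wild type (WT), 2 libraries per region, none of them fear conditioned. Each library held 50000 nuclei, and a bulk library mixes SOM+ cells, where Erbb4 was targeted, with all other cells. The driver of the knockout, the number of mice behind each library and the time between conditioning and dissection were not stated in the sources used here. The genotype field of the bulk WT libraries carries the KO entry, so WT rests on their titles. The protocol calls the sorted aliquots technical replicates. In each SOM+ group, however, library 1 was male and library 2 female, by label and by Y-linked promoter counts (815 to 1232 against 0). These were thus not aliquots of the same sample. Their spread includes any sex difference, and the SOM+ fit held no sex term. In bulk, all KO libraries and WT 2 were labelled male and WT 1 female in each region. A p-value measures the spread between these libraries, drawn largely from all windows in the SOM+ fit, and may not cover that between mice.

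SOM+ libraries held 2648959 to 7727263 promoter counts in CeA and 9452310 to 14668694 in cortex, and bulk libraries 2751769 to 7220446 and 5146020 to 7939962. Open promoters stood out most from closed ones in cortex SOM+ libraries. Enrichment, the ratio of the medians of 82 ribosomal protein and 1102 olfactory receptor promoters, was 53.6 to 73.6 there, 17.4 to 35.1 in CeA SOM+, 10.3 to 19.0 in CeA bulk and 9.67 to 14.2 in cortex bulk nuclei. Gad1, which encodes a GABA-synthesizing enzyme, marked the sort in cortex, at 89.1 to 94.6 CPM (counts scaled to a common library total) in SOM+ against 16.5 to 26.7 in bulk libraries. The Sst promoter itself overlapped between sorted and bulk libraries, at 14.5 to 18.4 against 7.81 to 18.6 CPM in cortex and at 11.6 to 26.4 against 12.7 to 25.7 CPM in CeA. The Erbb4 promoter held 26.0 to 41.4 CPM in cortex KO and 33.6 to 45.8 in cortex WT, and 28.8 to 39.6 in CeA KO and 35.2 to 37.5 in CeA WT. Where the deletion lies in Erbb4 was not stated in the sources used here, so its promoter does not check the KO label. Y-linked promoter counts went against the labelled sex in 4 bulk libraries, the KO 2 and WT 1 libraries of both regions, and the calls that leaving these libraries out changes are given with and without them.

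Pro-neurotrophins are cut to mature ligands. BDNF then acts mainly through TrkB and neurotrophin 3 mainly through TrkC, receptor tyrosine kinases that signal through the Ras, PI3 kinase and phospholipase C pathways, while p75 binds all neurotrophins and their precursors. Bdnf is a single protein made from many promoters, each with its own leading exon spliced to a shared coding exon, and cells and stimuli use these promoters differently. In the amygdala and cortex BDNF and TrkB are known for their part in synaptic plasticity and fear learning.

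The 4 Bdnf windows cover 7 start sites listed by RefSeq. Window 1 lay at chr2:109513857-109518188 in the mouse build mm9 and held start sites 1 and 2. Window 2 (chr2:109531593-109535565) held start sites 3, 4 and 5, window 3 (chr2:109548540-109550539) start site 6 and window 4 (chr2:109562078-109564077) start site 7. Measured from the first start site, the edges of the windows placed start sites at 0 and 2332 bases for window 1, at 17736 and 19709 bases for window 2, at 34683 bases for window 3 and at 48221 bases for window 4, and the RefSeq start sites of build GRCm38.p6 had the same spacing. Start site 1 leads exon I, start site 3 leads exon IV, the best known activity-dependent promoter of the gene, and start site 7 lies just before the coding exon (exon IXA). The 250 bases before a start site of each window are printed because the results turn on how these promoters differ, with E-boxes (CANNTG) and the cAMP response element variant TCACGTCA in capitals.
Bdnf start site 1 (window 1, exon I; chr2:109674450-109674699, GRCm38.p6, + strand): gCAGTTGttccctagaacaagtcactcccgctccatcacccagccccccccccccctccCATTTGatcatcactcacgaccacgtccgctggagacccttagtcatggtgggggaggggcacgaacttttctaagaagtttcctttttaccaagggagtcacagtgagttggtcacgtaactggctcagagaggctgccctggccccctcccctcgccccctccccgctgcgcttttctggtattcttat
Bdnf start site 3 (window 2, exon IV; chr2:109692186-109692435, GRCm38.p6, + strand): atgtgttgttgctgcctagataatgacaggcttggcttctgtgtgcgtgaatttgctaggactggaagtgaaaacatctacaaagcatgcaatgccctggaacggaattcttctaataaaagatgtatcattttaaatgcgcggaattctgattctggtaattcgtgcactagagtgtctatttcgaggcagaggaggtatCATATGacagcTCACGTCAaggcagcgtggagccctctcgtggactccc
Bdnf start site 6 (window 3; chr2:109709133-109709382, GRCm38.p6, + strand): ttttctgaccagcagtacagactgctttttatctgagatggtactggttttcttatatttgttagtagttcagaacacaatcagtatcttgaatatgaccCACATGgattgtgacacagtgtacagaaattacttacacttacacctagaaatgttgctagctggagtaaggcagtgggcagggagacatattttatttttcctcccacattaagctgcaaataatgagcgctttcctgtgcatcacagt
Bdnf start site 7 (window 4, exon IXA; chr2:109722671-109722920, GRCm38.p6, + strand): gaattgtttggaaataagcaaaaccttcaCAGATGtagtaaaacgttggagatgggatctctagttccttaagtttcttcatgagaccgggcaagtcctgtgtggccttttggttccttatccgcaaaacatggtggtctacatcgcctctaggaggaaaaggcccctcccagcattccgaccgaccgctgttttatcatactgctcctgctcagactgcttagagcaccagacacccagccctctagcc

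TCACGTCA stood 38 bases before start site 3 and before no other of the 7 start sites, on either strand. It was found in 0.35% of 32817 promoters of this length, and was added to the search later from what is known of Bdnf. The full element TGACGTCA was in none of the 7, against 1.55% of all promoters, and E-boxes, in 66.2% of all, were before 6 of the 7, start site 2 being the exception. The shorter element TGACG, in 17.7% of all, was 35 bases before start site 3 and overlapped TCACGTCA on the opposite strand. CpG dinucleotides numbered 9 before start sites 1 and 3, 7 before start site 7 and 1 before start site 6, where the quartiles over all promoters were 2, 6 and 16. Promoter sequences matched 4 of the 6 genes (Bdnf, Ntf3, Ntrk2 and Ngfr).

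Bdnf was most open in cortex bulk nuclei at windows 1 to 3 and least open in SOM+ nuclei. Levels are given as CPM scaled by the TMM method. In cortex bulk nuclei window 1 was at 143 and 184 CPM in the WT libraries and at 105, 163 and 229 in the KO libraries. In CeA bulk nuclei it was at 30.4 and 65.0 CPM in WT and at 49.7, 35.2 and 33.4 in KO. Every cortex bulk library lay above every CeA bulk library. Cortex SOM+ nuclei were at 43.4 and 20.9 CPM in control and at 39.3 and 30.9 in fear libraries, and CeA SOM+ nuclei at 16.7 and 17.0 in control and at 14.1 and 25.3 in fear libraries. The SOM+ values of the regions overlapped, since cortex control 2 was below CeA fear 2, and cortex SOM+ also overlapped CeA bulk nuclei. Window 2, which holds the exon IV start site, held 92.3 to 168 CPM in cortex bulk, 44.0 to 67.6 in CeA bulk, 18.8 to 31.4 in cortex SOM+ and 17.2 to 24.7 in CeA SOM+ nuclei. Only the SOM+ ranges of the regions overlapped there.

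Window 4 followed another order. It was highest in CeA bulk nuclei, at 26.6 and 23.9 CPM in WT and at 33.0, 20.2 and 26.9 in KO. Cortex bulk nuclei were lower, at 16.1 and 16.5 CPM in WT and at 10.3, 11.9 and 20.1 in KO, with cortex KO 3 just under CeA KO 2. CeA SOM+ nuclei were at 8.81 and 13.5 CPM in control and at 7.34 and 9.54 in fear libraries. Cortex SOM+ nuclei were at 2.80 and 2.72 CPM in control and at 3.43 and 2.47 in fear libraries, below every CeA library. These cortex values rest on 20 to 44 counts per library. Window 3 stood between, at 20.1 to 26.4 CPM in cortex bulk, 11.5 to 20.6 in CeA bulk, 4.04 to 8.55 in CeA SOM+ and 2.96 to 6.71 in cortex SOM+ nuclei.

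**Figure D1:**
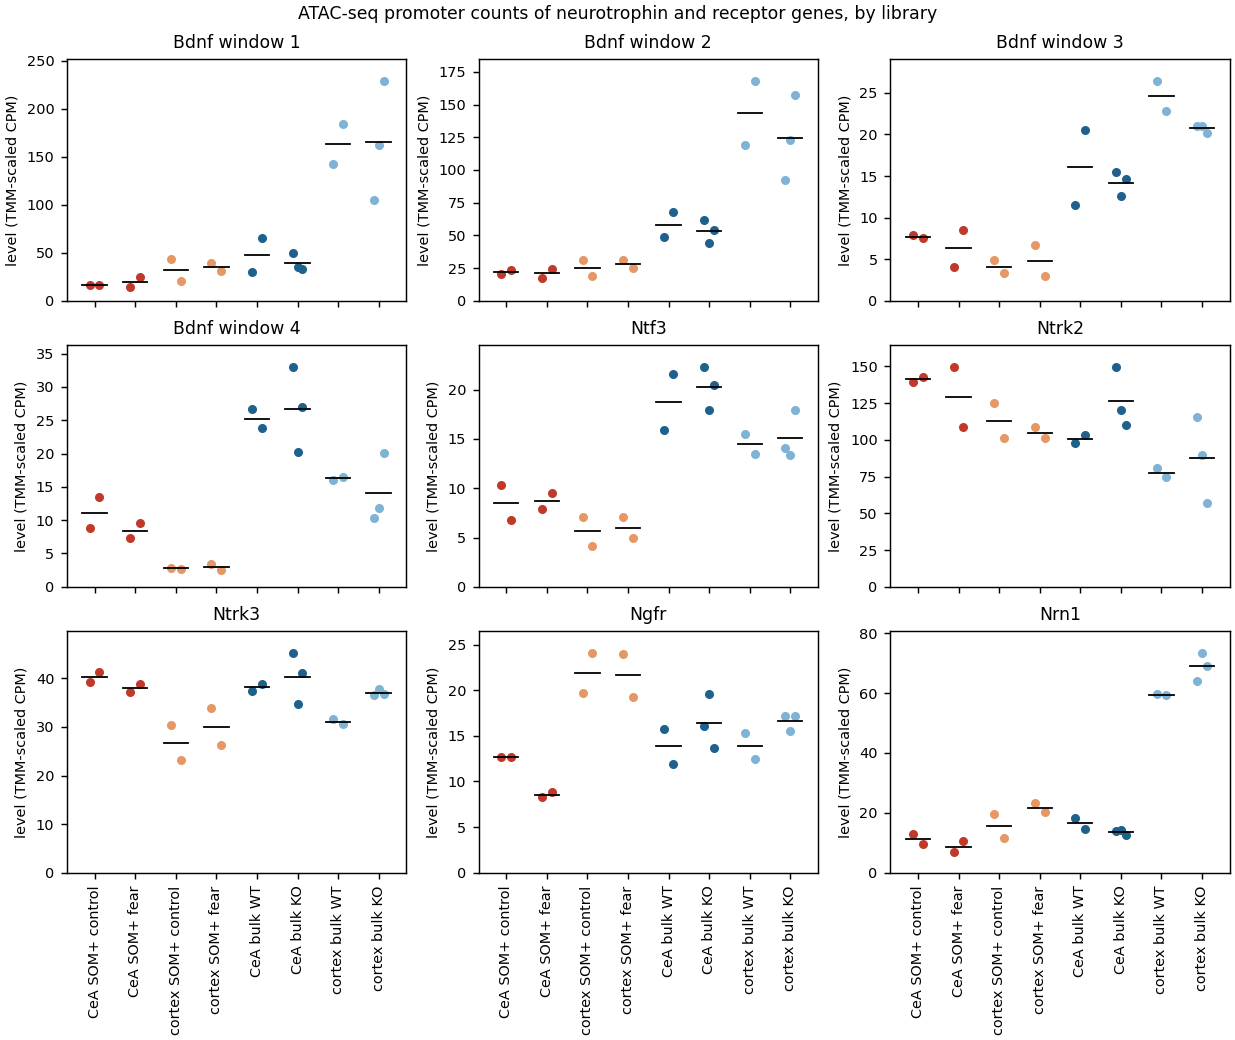
Level of each promoter window in TMM-scaled CPM (vertical axes, linear from 0, a scale per panel) in the 18 libraries. Points are libraries and bars group means. Bdnf windows 1 and 2 and Nrn1 are highest in the cortex bulk groups, Bdnf window 4 is highest in the CeA bulk groups, and the Ntrk3 libraries of all groups lie between 23.3 and 45.2 CPM.

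Per kilobase of window, so that genes can be compared, Ntrk2 was the most open of the 9 windows when averaged over the 18 libraries, at 35.1 CPM per kb. That mean was above those of 80.7% of the windows tested. Ntrk3 followed at 17.8, then Bdnf window 1 at 16.0, Bdnf window 2 at 15.8 and Nrn1 at 14.3 CPM per kb. Ngfr (7.89), Bdnf window 4 (7.11), Bdnf window 3 (6.44) and Ntf3 (3.38) were lowest, and Ntf3 exceeded 24.2% of the windows. The order changed between nuclei: in cortex bulk libraries Bdnf window 1, at 38.0 ± 10.7 CPM per kb (SD, n = 5), stood above Ntrk2, at 26.7 ± 6.91, whereas in CeA SOM+ libraries it was at 4.22 ± 1.12 (n = 4) against 43.2 ± 5.77.

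The region comparison in SOM+ nuclei asked how these promoters differ between somatostatin neurons of the CeA and of the cortex, with 4 libraries per region. Of the 9 windows 7 differed at an adjusted p under 0.05 (edgeR quasi-likelihood F test, Benjamini-Hochberg over all windows), 4 higher and 3 lower in CeA. In this comparison 48.3% of all 25157 windows were called, 21.1% higher and 27.1% lower, and the members are to be read against that. Bdnf split by start site. Window 4 rose in CeA, from a mean of 2.85 CPM in cortex to 9.79, a log2 difference of 1.77 ± 0.29 (SE, 3.41-fold, adjusted p = 2.12e-08). Window 1 fell, from 33.6 to 18.3 CPM (-0.87 ± 0.17, adjusted p = 1.58e-06). Window 2 (-0.28 ± 0.17, adjusted p = 0.152) and window 3 (0.64 ± 0.29, adjusted p = 0.0581) did not pass the test. Window 3 passed under several alternatives, with an adjusted p of 0.0183 without cortex fear 1, 0.0218 without CeA fear 1 and 0.0383 without cortex control 1.

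Among the receptors, Ntrk3 was higher in CeA SOM+ nuclei in every library. It was at 39.3 and 41.2 CPM in CeA control, 37.2 and 38.8 in CeA fear, 30.3 and 23.3 in cortex control and 33.8 and 26.3 in cortex fear libraries, a log2 difference of 0.50 ± 0.15 (adjusted p = 0.00329). Ngfr was lower in CeA in every library, at 12.6, 12.7, 8.26 and 8.88 CPM against 19.7, 24.1, 24.0 and 19.2 in cortex, with the control libraries first. Its log2 difference was -1.02 ± 0.19 (adjusted p = 1e-06). Ntrk2, at 140, 143, 150 and 109 CPM in CeA and 125, 101, 108 and 101 in cortex, overlapped between regions, and its log2 difference of 0.36 ± 0.16 passed narrowly (adjusted p = 0.0448). It did not pass without CeA control 1 (adjusted p = 0.057), CeA fear 1 (0.22 log2, adjusted p = 0.133), cortex control 2 (adjusted p = 0.0703) or cortex fear 1 (adjusted p = 0.113).

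The other ligand, Ntf3, was near its lowest levels in SOM+ nuclei, at 10.3, 6.74, 7.89 and 9.54 CPM in CeA and 7.12, 4.13, 7.10 and 4.93 in cortex libraries. The regions overlapped, and its log2 difference of 0.61 ± 0.26 (adjusted p = 0.0377) did not pass without CeA control 1 (adjusted p = 0.235), CeA fear 2 (0.0825), cortex control 2 (0.16) or cortex fear 2 (0.124), nor by DESeq2 (0.0716) or by limma on cyclic loess values (0.198). Nrn1 fell in CeA SOM+ nuclei, at 12.9, 9.43, 6.79 and 10.5 CPM against 19.7, 11.5, 23.3 and 20.2 in cortex (-0.87 ± 0.20, adjusted p = 6.04e-05), with cortex control 2 inside the CeA range. Beside these differences, promoter enrichment over closed promoters was lower in every CeA SOM+ library than in every cortex SOM+ library. Marker sums, here and below, are in CPM by total counts without TMM scaling, unlike the levels of single promoters. They were not computed with TMM scaling, which can change how groups of libraries compare. The summed level of 12 glutamatergic marker promoters was 268 to 302 CPM in CeA against 181 to 239 in cortex. Of the 12, Nrgn (67.1 against 24.1 CPM, TMM-scaled) and Camk2a (103 against 69.3) were the 2 called higher in CeA. Another 5 were called lower, and the median log2 difference over the 12 was -0.34. Sums over 11 GABAergic markers were 650 to 749 in CeA and 681 to 744 CPM in cortex. Markers of oligodendrocytes and their precursors summed to 143 to 183 against 103 to 122 CPM, vascular markers to 73.7 to 102 against 66.7 to 70.8, and astrocyte markers to 116 to 172 against 105 to 146, and none of these was at 0. Single promoters, tested with TMM scaling, went both ways. In CeA 3 oligodendrocyte markers were called higher and 1 lower, 3 vascular markers higher and 2 lower, and 2 astrocyte markers higher and 2 lower. The median log2 differences of these lists were 0.28, -0.08 and 0.27. The part of enrichment or of other cells in these differences was not tested. Scaling by total counts moved the median of all windows from 0.04 to 0.26 log2 in this comparison, and 61.5% instead of 43.8% of the calls were then higher in CeA, while the 7 called members kept their directions.

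In bulk nuclei the same comparison, with 5 libraries per region, asked how the regions differ over all their cells. It called 5 of the 9 windows, 1 higher and 4 lower in CeA, where 16.9% of all 25196 windows were called, 6.9% higher and 9.98% lower. Bdnf window 1 fell from a mean of 165 CPM in cortex to 42.7 in CeA (log2 difference -1.94 ± 0.19, adjusted p = 6.16e-07), window 2 from 132 to 55.3 CPM (-1.24 ± 0.15, adjusted p = 8.19e-06) and window 3 from 22.3 to 14.9 CPM (-0.60 ± 0.18, adjusted p = 0.0272). Window 4 moved the other way, from 15.0 to 26.1 CPM (0.80 ± 0.19, adjusted p = 0.00754). Nrn1 had the largest difference of the 9 windows in this comparison: 59.5 and 59.3 CPM in cortex WT and 64.0, 73.4 and 69.2 in cortex KO, against 18.4, 14.6, 14.1, 14.3 and 12.5 in CeA (-2.07 ± 0.13, adjusted p = 4.87e-09). Ntf3 (0.40 ± 0.18, adjusted p = 0.122), Ntrk2 (0.47 ± 0.17, adjusted p = 0.0621), Ntrk3 (0.22 ± 0.13, adjusted p = 0.251) and Ngfr (0.01 ± 0.18, adjusted p = 0.974) were not called, and their 95% intervals were 0.03 to 0.77, 0.11 to 0.82, -0.05 to 0.50 and -0.36 to 0.38.

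Windows 1 and 2 and Nrn1 stayed called in all 20 alternatives, windows 3 and 4 did not. Window 4 was not called without CeA WT 1 (adjusted p = 0.0812), CeA WT 2 (0.104), cortex WT 1 (0.126) or cortex WT 2 (0.0822), and without the 4 libraries of discordant sex it was at 0.80 (adjusted p = 0.161). Window 3 was not called without CeA KO 2 (adjusted p = 0.0708), CeA KO 3 (0.0508), CeA WT 1 (-0.30 log2, 0.407) or cortex WT 1 (-0.39 log2, 0.275), nor without the 4 libraries (-0.26 log2, adjusted p = 0.708). Ntrk2 was called without cortex KO 1 (0.59 log2, adjusted p = 0.0033), under total count scaling (adjusted p = 0.0229) and by limma on cyclic loess values (adjusted p = 0.0137). Under total count scaling window 3 was not called (adjusted p = 0.0782), and 56.7% of the calls over all windows were higher in CeA instead of 40.9%. The glutamatergic marker sum was 645 to 711 CPM in cortex bulk against 339 to 408 in CeA bulk libraries, with 9 of the 12 promoters called lower in CeA, and the GABAergic sum was 208 to 264 against 529 to 710 CPM. No marker of either list was at 0 in any library, and the part of cell composition in the Bdnf and Nrn1 differences was not tested. In bulk nuclei fewer cells with an open promoter and a less open promoter in each cell cannot be told apart.

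**Figure D2:**
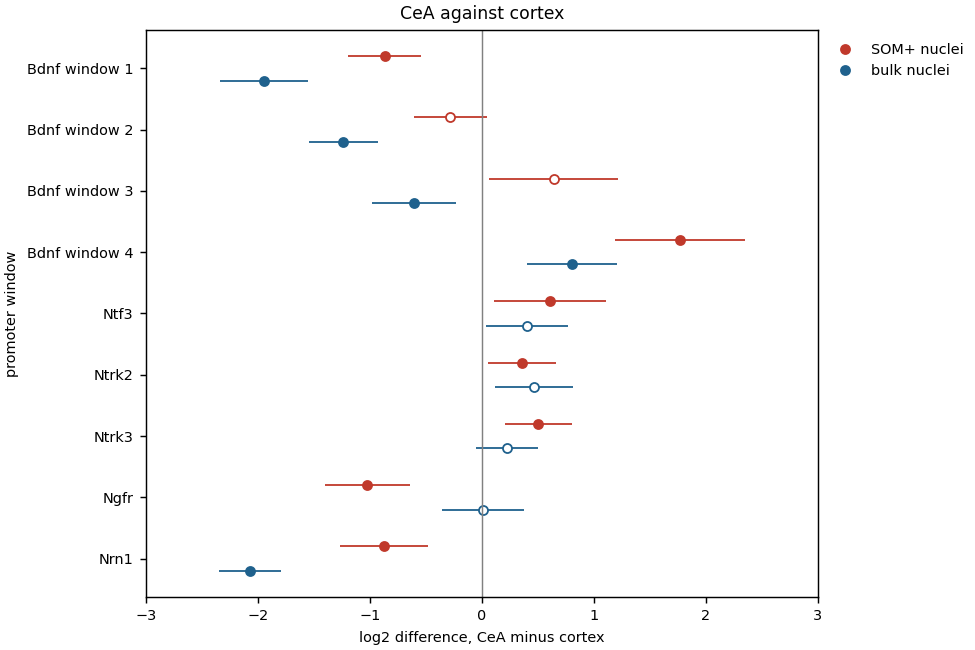
Log2 difference of CeA minus cortex for the 9 promoter windows in SOM+ (4 against 4 libraries) and bulk nuclei (5 against 5). Bars are 95% intervals, filled points passed the adjusted p of 0.05 and open points did not. Bdnf window 4 lies above 0 in both kinds of nuclei and Bdnf window 1 and Nrn1 below 0 in both.

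The division of Bdnf counts among its windows is called start site use here, though accessibility does not measure transcription. Library scaling cancels in these shares, but reads spread evenly along the gene do not, and window widths differ (4.33, 3.97, 2 and 2 kb). Per kb, windows 1 to 4 held 4.22, 5.41, 3.51 and 4.89 CPM in CeA SOM+ libraries. In cortex SOM+ they held 7.76, 6.69, 2.23 and 1.43 CPM. Bulk libraries held 9.86, 13.9, 7.47 and 13.1 in CeA, and 38.0, 33.2, 11.1 and 7.48 in cortex. The part of evenly spread reads was not tested. Window 4 took 16.3%, 21.9%, 17.2% and 14.0% of the Bdnf counts in CeA SOM+ libraries and 22.7%, 13.5%, 20.6%, 18.1% and 20.8% in CeA bulk libraries (control before fear and WT before KO). In cortex it took 3.40%, 5.94%, 4.27% and 4.00% in SOM+ and 5.29%, 4.20%, 4.49%, 3.73% and 4.72% in bulk libraries. The lowest CeA library was above the highest cortex library in both kinds of nuclei, and within a region SOM+ and bulk libraries overlapped. Means were 17.3% ± 3.33 (SD, n = 4) and 19.1% ± 3.57 (n = 5) in CeA, and 4.40% ± 1.09 (n = 4) and 4.49% ± 0.58 (n = 5) in cortex, SOM+ before bulk. Window 1 was the counterpart, at 32.2% ± 4.01 and 30.2% ± 4.53 in CeA against 49.4% ± 2.87 and 49.0% ± 3.30 in cortex, again without overlap between regions. Window 2, with exon IV, kept a similar share throughout, between 36.2% and 42.9% in all 18 libraries. Window 3 took 12.2% ± 2.13 and 10.7% ± 0.93 in CeA against 6.57% ± 1.55 and 7.01% ± 1.90 in cortex. In counts, there were 0.55 ± 0.17 window 4 reads per window 1 read in CeA SOM+ and 0.66 ± 0.20 in CeA bulk nuclei, against 0.09 ± 0.03 in cortex SOM+ and 0.09 ± 0.01 in cortex bulk nuclei.

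**Figure D3:**
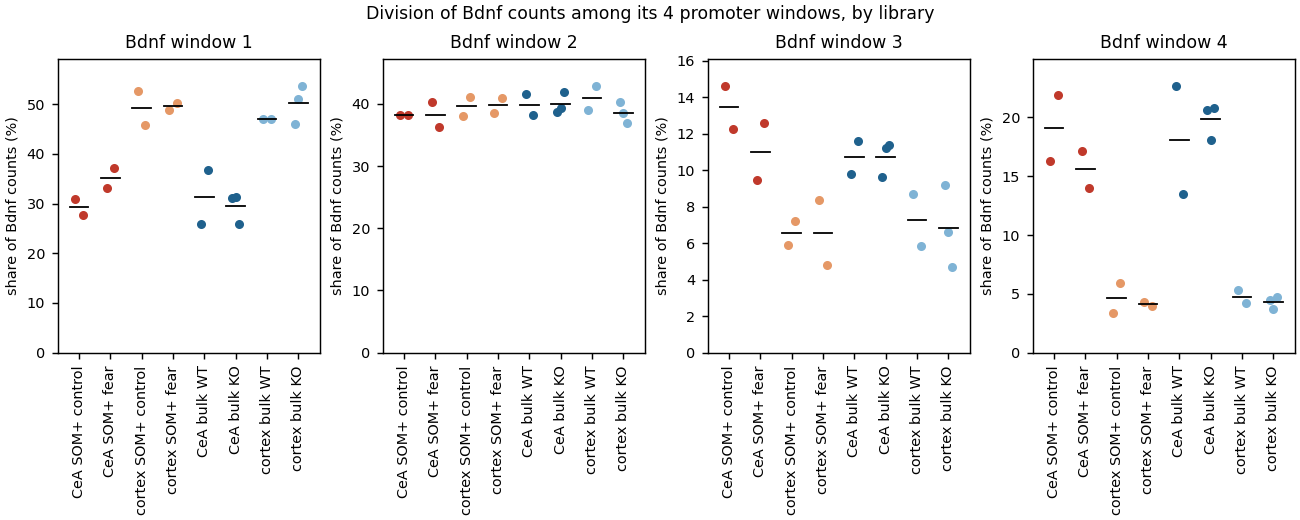
Share of a library's Bdnf counts in each of the 4 Bdnf windows (vertical axes in percent, linear from 0, a scale per panel). Points are libraries and bars group means. The window 4 share is 13.5% to 22.7% in CeA and 3.40% to 5.94% in cortex libraries, and the window 2 share lies between 36.2% and 42.9% throughout.

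The test of start site use compares each window's log2 change with that of all windows of its gene (edgeR diffSpliceDGE). In SOM+ nuclei 2 of the 4 Bdnf windows passed, where 10.9% of 2763 windows of genes with several windows did, 7.49% with a rise and 3.37% with a fall. Window 4 rose in use in CeA by 1.99 ± 0.33 log2 (adjusted p = 5.38e-06) and window 1 fell (-0.65 ± 0.19, adjusted p = 0.0169). In bulk nuclei 2 of 4 passed, where 2.69% of 2752 did, 1.27% with a rise and 1.42% with a fall: window 4 at 2.05 ± 0.23 (adjusted p = 3.84e-08), the third smallest p of those windows, and window 1 at -0.70 ± 0.18 (adjusted p = 0.0206). Windows 2 and 3 did not pass in either (window 3 at 0.86 ± 0.33, adjusted p = 0.0845, and 0.64 ± 0.23, adjusted p = 0.162). The call of window 4 held in all 13 alternatives in SOM+ and all 18 in bulk nuclei, with log2 values of at least 1.75 and 1.92. That of window 1 did not: it was lost in 7 of 13 and 9 of 18, with log2 values of -0.69 to -0.58 and -0.82 to -0.57. The lost calls include those without CeA control 1, CeA control 2, CeA fear 1, CeA fear 2, cortex control 1 or cortex fear 2 (adjusted p = 0.0518 to 0.101). In bulk they include those without CeA KO 3, cortex KO 2 or any 1 of the 4 WT libraries (adjusted p = 0.0807 to 0.507), and the one without the 4 libraries of discordant sex (-0.59 log2, adjusted p = 0.804).

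Use did not differ detectably between sorted and bulk nuclei. Within CeA the log2 differences of the 4 windows, SOM+ control minus bulk WT, ran from -0.13 to 0.31 and within cortex from -0.16 to 0.07, and none passed (0% of 2760 windows passed in CeA and 1.12% in cortex, 0.217% with a rise and 0.906% with a fall). Unadjusted p-values of the 4 windows were all above 0.05. A test of the difference between the region effects of the kinds of nuclei, added after the values were seen, gave 0.19 ± 0.61 for window 4 and -0.20 ± 0.41 for window 1 (adjusted p = 1 for each, 0.145% of 2760 windows called, 0.0725% in each direction). Those SEs leave room for sizeable differences in use.

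SOM+ control nuclei were set against bulk WT nuclei within each region, 2 libraries each, for how somatostatin neurons stand out from all cells. Sort, mouse line and preparation cannot be told apart here, and the fit held labelled sex as a term. In cortex 8 of 9 windows were called, 2 higher and 6 lower in SOM+ nuclei, where 62.1% of 25246 windows were called, 31.5% higher and 30.6% lower. All Bdnf windows fell by similar amounts in cortex SOM+ nuclei: the log2 differences were -2.38 ± 0.29, -2.52 ± 0.24, -2.61 ± 0.35 and -2.55 ± 0.36 for windows 1 to 4 (adjusted p = 5.23e-09, 5.58e-11, 4.16e-08 and 9.73e-08). Mean levels were 32.1 against 164, 25.1 against 143, 4.08 against 24.6 and 2.76 against 16.3 CPM, and no SOM+ library reached a bulk one. Nrn1 fell by 1.94 ± 0.24 log2 (15.6 against 59.4 CPM, adjusted p = 9.9e-09) and Ntf3 by 1.41 ± 0.32 (5.63 against 14.5 CPM, adjusted p = 0.000201). These 6 calls held in all 14 alternatives.

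The receptors did not share this pattern in cortex. Ntrk2 was higher in SOM+ control nuclei, at 125 and 101 CPM against 80.5 and 74.5 in bulk WT (0.53 ± 0.23, adjusted p = 0.0389), as was Ngfr, at 19.7 and 24.1 against 15.3 and 12.4 (0.65 ± 0.27, adjusted p = 0.033). The Ntrk2 call was lost without cortex control 1 (adjusted p = 0.209), control 2 (0.0645) or WT 2 (0.254), without the 4 libraries of discordant sex (0.159) and under total count scaling (0.30 log2, 0.261). The Ngfr call was lost without any 1 of the cortex control or WT libraries (adjusted p = 0.0554 to 0.193), without the 4 libraries (0.0825) and under total count scaling (0.41 log2, 0.232). Ntrk3 was at 30.3 and 23.3 against 31.6 and 30.6 CPM (-0.22 ± 0.21, adjusted p = 0.358, 95% interval -0.65 to 0.20). Limma on cyclic loess values called it lower (-0.77, adjusted p = 0.00192).

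Within CeA 5 of 9 windows were called, all lower in SOM+ nuclei, where 23.2% of 25246 windows were called, 13.7% higher and 9.58% lower. They were the 4 Bdnf windows and Ntf3, that is, every ligand window. Bdnf window 1 was at 16.7 and 17.0 CPM in SOM+ control against 30.4 and 65.0 in bulk WT (-1.45 ± 0.32, adjusted p = 0.000943), and window 2 at 20.7 and 23.4 against 48.8 and 67.6 (-1.40 ± 0.25, adjusted p = 0.000114). Window 3 (-1.01 ± 0.36, adjusted p = 0.0346) and window 4 (-1.22 ± 0.32, adjusted p = 0.0055) fell too, as did Ntf3, at 10.3 and 6.74 against 15.9 and 21.6 CPM (-1.11 ± 0.32, adjusted p = 0.00947). Window 2 alone kept its call in all 14 alternatives. Window 1 lost its call without CeA control 1 (adjusted p = 0.0716) or CeA WT 2 (0.0637), window 3 without CeA control 1 (0.227), control 2 (0.1) or WT 2 (-0.65 log2, 0.331), window 4 without control 1 (0.142) or WT 1 (0.0683), and Ntf3 without control 2 (0.103), WT 1 (0.0545) or WT 2 (0.0735). Without the 4 libraries of discordant sex only windows 1 and 2 were called. Ntrk2 (0.49 ± 0.23, adjusted p = 0.116), Ntrk3 (0.07 ± 0.21), Ngfr (-0.14 ± 0.29) and Nrn1 (-0.58 ± 0.28, adjusted p = 0.123) were not called.

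**Figure D4:**
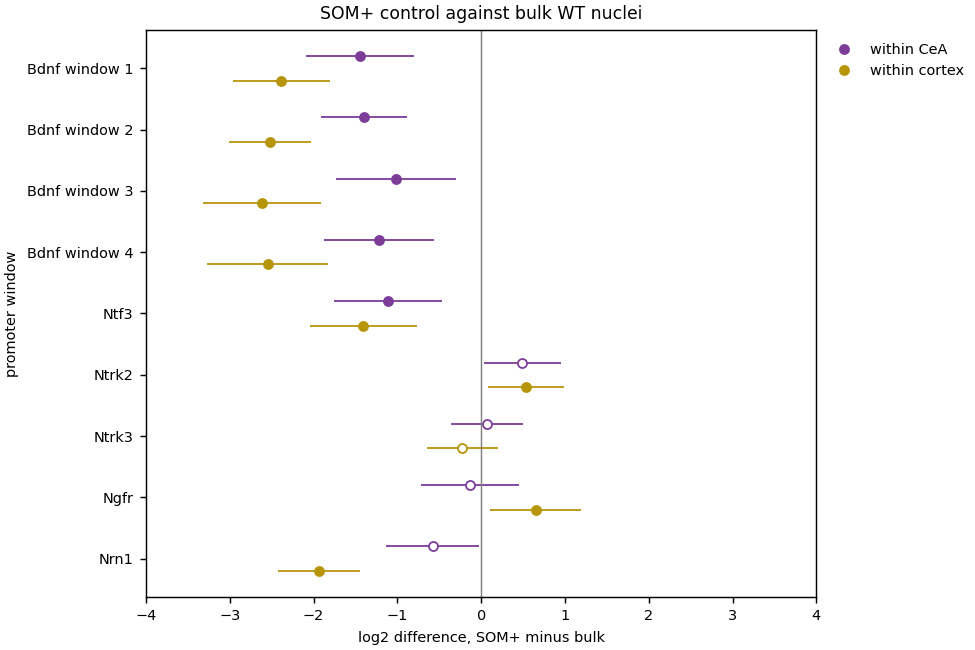
Log2 difference of SOM+ control minus bulk WT nuclei (2 against 2 libraries in each region) for the 9 promoter windows. Bars are 95% intervals, filled points passed the adjusted p of 0.05 and open points did not. The 4 Bdnf windows and Ntf3 lie below 0 in both regions, with the Bdnf windows at -2.61 to -2.38 in cortex and at -1.45 to -1.01 in CeA. That difference between regions passed its own test at windows 2, 3 and 4 but not at window 1. These 3 calls were lost when any of several single libraries was left out.

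Marker sums of glutamatergic neurons, astrocytes and oligodendrocytes with their precursors were also lower in SOM+ than in bulk libraries, with fear and KO libraries included in the ranges. In cortex the glutamatergic sum was 181 to 239 CPM in SOM+ against 645 to 711 in bulk libraries, the astrocyte sum over 10 promoters 105 to 146 against 282 to 305, and the sum over 12 promoters of oligodendrocytes and their precursors 103 to 122 against 303 to 343. In CeA the same sums were 268 to 302 against 339 to 408, 116 to 172 against 230 to 271 and 143 to 183 against 259 to 320 CPM. Not every marker was called between SOM+ control and bulk WT nuclei. In cortex 11 of 12, 7 of 10 and 8 of 12 promoters of these lists were called lower, and the astrocyte promoter Fgfr3 higher (1.13). In CeA 5, 6 and 5 were called lower and 0 higher. Sums of microglia and vascular markers were lower in SOM+ than in bulk libraries in cortex but overlapped in CeA. There they were 53.4 to 73.6 against 62.0 to 122 CPM for microglia and 73.7 to 102 against 99.3 to 153 for vascular cells. Of 9 microglia markers 1 was called lower in each region. Of 9 vascular markers 4 were called lower and 2 higher in cortex, and 1 lower in CeA. Enrichment over closed promoters was also higher in SOM+ than in bulk libraries in cortex. Their part in the Bdnf, Ntf3 and Nrn1 differences was not tested. Total count scaling moved the median of all windows from -0.06 to -0.22 log2 in CeA and from -0.07 to -0.31 in cortex, and higher calls then made up 40.7% instead of 58.8% and 41.7% instead of 50.8%.

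The region difference was compared between SOM+ control and bulk WT nuclei, which tests the difference itself. It called 4 of 9 windows, all with a region difference more toward CeA in SOM+ nuclei, where 24.7% of 25246 windows were called, 9.46% in this direction and 15.2% in the other. They were Bdnf window 2 (1.12 ± 0.34), window 3 (1.60 ± 0.50), window 4 (1.33 ± 0.48) and Nrn1 (1.36 ± 0.36, adjusted p = 0.0149, 0.0157, 0.0379 and 0.00526 in this order). Window 1 was at 0.93 ± 0.42 (adjusted p = 0.1), and was called without cortex SOM+ control 1 (1.37 log2, adjusted p = 0.0428) or CeA bulk WT 2 (1.36, adjusted p = 0.0398) and by limma on cyclic loess values (1.31, adjusted p = 0.0322). Without the 4 libraries of discordant sex only Nrn1 was called. None of the 4 calls survived leaving out cortex SOM+ control 2, the cortex SOM+ library with the lowest Bdnf window 1 and Nrn1 levels. Each of the 4 was also lost without other single libraries. Windows 2 and 3 lost the call without CeA SOM+ control 2 or CeA WT 1, among others, and Nrn1 without CeA SOM+ control 1 or CeA WT 2. Window 4 kept it only where CeA SOM+ control 1 was the library left out. Ngfr, at -0.79 ± 0.39 (adjusted p = 0.139), and the other receptors were not called.

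Fear conditioning was compared with control in SOM+ nuclei of each region, 2 libraries each. None of the 9 windows was called in CeA or cortex or in the test of the difference between regions, where 0% of 25157 windows were called, by edgeR, DESeq2 and limma alike. At an unadjusted p under 0.05 edgeR gave 598 windows in CeA, 288 in cortex and 371 in the test of the difference, among them 0, 0 and 1 of the members. That 1 was Nrn1, at 12.9 and 9.43 CPM in CeA control and 6.79 and 10.5 in CeA fear, and at 19.7 and 11.5 in cortex control and 23.3 and 20.2 in cortex fear. Its log2 differences were -0.42 ± 0.31 and 0.49 ± 0.25, and the CeA minus the cortex difference was -0.91 ± 0.40 (unadjusted p = 0.0229, adjusted p = 1). Ngfr was lower in both CeA fear libraries than in both controls, at a log2 difference of -0.55 ± 0.30 (adjusted p = 1), and its means in cortex were 21.6 CPM in fear and 21.9 in control libraries. Ntrk3 in CeA was likewise lower in both fear libraries (-0.06 ± 0.22), and Nrn1 in cortex was higher in both. The share of all windows without overlap was not computed.

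At Bdnf, the 95% intervals of the fear difference were -0.30 to 0.70 at window 1, -0.56 to 0.42 at window 2, -1.19 to 0.49 at window 3 and -1.16 to 0.41 at window 4 in CeA. In cortex they were -0.28 to 0.56, -0.26 to 0.61, -0.50 to 1.07 and -0.71 to 0.97. A log2 difference of 1 at window 1 or 2, the windows with exons I and IV, lies outside these intervals in both regions. The intervals, however, rest on a spread estimated largely over all windows of the SOM+ fit, not on that of the window itself. At window 1 the 2 libraries of a group lay far apart, at 43.4 and 20.9 CPM in cortex control and at 14.1 and 25.3 in CeA fear. A difference of that size is therefore not excluded. Changes inside the intervals cannot be told apart from none at this depth and number of libraries. Intervals for Ntrk2 were -0.54 to 0.34 in CeA and -0.53 to 0.33 in cortex, and for Ntrk3 -0.50 to 0.37 and -0.23 to 0.59. For Ntf3 they were wider, -0.76 to 0.76 and -0.57 to 0.80. The window 4 share of Bdnf counts was 16.3% and 21.9% in CeA control against 17.2% and 14.0% in CeA fear libraries, with overlap.

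Erbb4 KO was compared with WT in bulk nuclei, 3 against 2 libraries per region. None of the 9 windows was called in CeA or cortex or in the test of the difference between regions, where 0% of 25196 windows were called, by edgeR, DESeq2 and limma alike. At an unadjusted p under 0.05 there were 745, 823 and 590 windows, with 0 members in each. The sex term, shared by both regions, is set by the WT 1 libraries, labelled female, against WT 2. The KO estimates within a region therefore rest more on WT 2 than on WT 1. In the test of the difference between regions the shared term cancels. Leaving out the 4 libraries of discordant sex leaves WT 2 as the only WT library of each region. Since the main fit called 0% of windows, that smaller fit adds no support to the lack of calls. Total count scaling moved the median of all windows from 0.02 to 0.13 log2 in cortex and from 0.01 to -0.14 in the test of the difference between regions, and called 0 members. In CeA the log2 differences ran from -0.51 ± 0.30 (Bdnf window 1, KO at 49.7, 35.2 and 33.4 against WT at 30.4 and 65.0 CPM) to 0.47 ± 0.30 (Ngfr, adjusted p = 0.999 for both). In cortex they ran from -0.43 ± 0.23 (Bdnf window 2, KO at 92.3, 123 and 157 against WT at 119 and 168 CPM) to 0.44 ± 0.29 (Ngfr, adjusted p = 0.945 for both). Bdnf window 2 was called in cortex without KO 3 (-0.63, adjusted p = 0.0449), a setting that called 985 windows in all. Ntrk3 in cortex was at 36.5, 37.7 and 36.7 CPM in KO against 31.6 and 30.6 in WT, and Nrn1 at 64.0, 73.4 and 69.2 against 59.5 and 59.3, without overlap but not past the test (0.25 ± 0.22 and 0.30 ± 0.20, adjusted p = 0.945 for both). Ngfr (higher in KO) and Bdnf window 3 (lower, -0.39 ± 0.29) did not overlap in cortex either. In CeA the groups did not overlap at Ntrk2, higher in KO (0.36 ± 0.27), and at Nrn1, there lower in KO (-0.18 ± 0.24). The share of all windows without overlap was not computed.

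**Figure D5:**
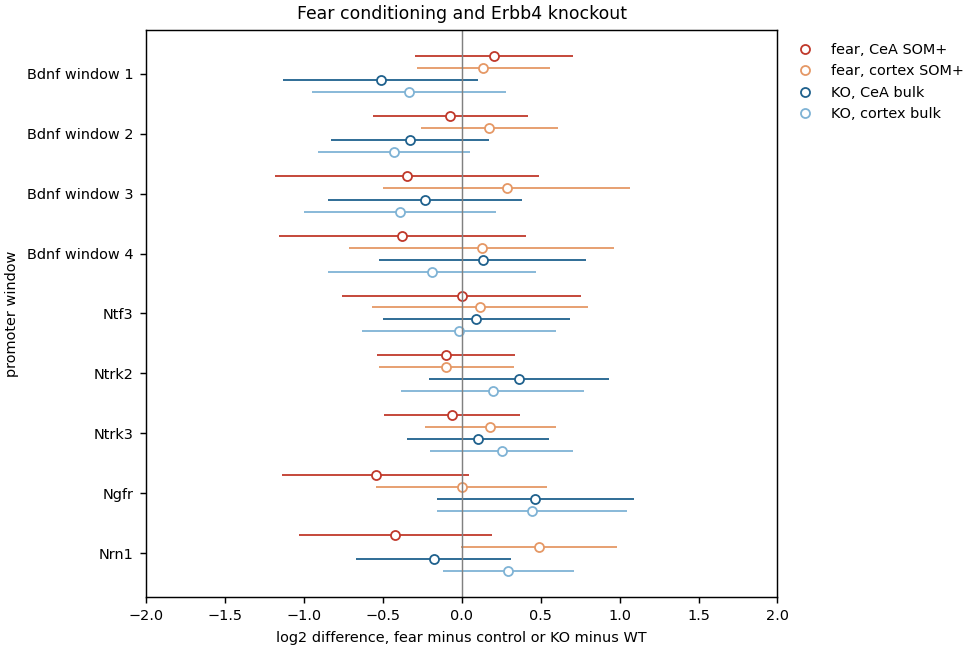
Log2 differences of fear minus control in SOM+ nuclei (2 against 2 libraries) and of KO minus WT in bulk nuclei (3 against 2) for the 9 promoter windows in each region. Bars are 95% intervals and open points did not pass the adjusted p of 0.05. No point is filled, and every interval includes 0.

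Other genes of the pathway were followed in lists that exclude the members, 17 for ligands, their processing and sorting, 12 for receptor partners, 29 for Trk adaptors and effectors and 26 for regulators of Bdnf transcription, all of them tested. Between regions in SOM+ nuclei, where 48.3% of all windows were called (21.1% higher and 27.1% lower), 20 of the 29 adaptors and effectors differed between regions, 2 higher and 18 lower in CeA, with a median log2 difference of -0.39 against 0.04 over all windows. Sh2b2 (-1.58), Shc4 (-1.36) and Shc1 (-1.30), which encode adaptor proteins of receptor tyrosine kinases, led the lower ones. Gab1 (1.00), another adaptor, was among the higher ones. Promoter enrichment was also lower in CeA SOM+ (17.4 to 35.1) than in cortex SOM+ libraries (53.6 to 73.6). Its part in these list differences was not tested. Among ligands and processing genes 4 were higher and 6 lower: the sorting receptor Sorcs3 (adjusted p = 8.45e-19) and the protease Pcsk5 (0.60) rose, and Sorcs2, a relative of Sorcs3 (adjusted p = 2.12e-20), and the pro-neurotrophin protease Furin (-0.76) fell. Receptor partners numbered 3 higher, led by the TrkB partner Slitrk5 (0.86), and 5 lower, led by the neuritin relative Nrn1l (-1.01) and the p75 partner Lingo1 (-0.72). Regulators of Bdnf numbered 5 higher, with Mef2c (1.60) and Crem (0.70), and 7 lower, with the CREB coactivator Crtc1 (-1.15) first.

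In bulk nuclei, where 16.9% of all windows were called between regions, the lists gave 0 higher and 2 lower of the ligand list (Cadps2, which acts in release of dense core vesicles, -1.02, and the protease Pcsk1, -0.95), 1 and 1 of receptor partners (Adora2a 0.43, Slitrk5 -0.61), 6 and 2 of adaptors and effectors (Mapk7 0.51 and Mapk3 0.61, Irs1 -0.55) and 1 and 1 of regulators (Usf2 0.39, Neurod2 -1.03). Slitrk5 was lower in CeA bulk but higher in CeA SOM+ nuclei, and the difference between the region effects was called (1.55, adjusted p = 0.000747). Between SOM+ and bulk nuclei in cortex, where 31.5% of all windows were called higher and 30.6% lower, 18 adaptors and effectors were higher and 4 lower, with a median of 0.68 against -0.07 over all windows, led by Sh2b1 (2.35), Grb2 (1.89) and Rapgef1 (2.08). The other lists gave 8 higher and 7 lower, 4 and 4, and 11 and 8. Promoter enrichment was 53.6 to 73.6 in cortex SOM+ against 9.67 to 14.2 in cortex bulk libraries. Its part in these list differences was not tested. Npas4 (2.34), an activity-induced factor that acts on Bdnf, was among the higher regulators and Mef2c (-2.52) and Rest (-1.41), a repressor of neuronal genes, among the lower. In CeA, where 13.7% were called higher and 9.58% lower, the 4 lists gave 2 and 3, 3 and 1, 6 and 1, and 5 and 1, with Npas4 (1.17) again higher and Rest (-1.06) lower. Medians of the ligand list were 0.14 in CeA and 0.50 in cortex against -0.06 and -0.07 over all windows. Fear conditioning and KO called 0 genes of any list.

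The promoters whose levels ran most like those of 4 members were sought over the 8 group means among 14970 windows with a mean of at least 10 CPM, as a description only. For Bdnf window 1 they were Stab2 (Pearson r = 0.995), Fgf5, Sel1l3 and Hsd11b1, for Ntrk2 Ptprs (0.986), Mir344f, Gnal and Fam213b, for Ntrk3 Grhl1 (0.99), Rprml, Gbp11 and Igsf9b, and for Nrn1 Itih2 (0.992), Hist1h1b, Olfr1392 and Mgp. The 8 points share libraries between all genes, and 4 of them are bulk groups.

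The remaining members lay on the build mm9 at chr6:126113979-126117762 (Ntf3), chr13:58906930-58910057 (Ntrk2), chr7:85721725-85723724 (Ntrk3), chr11:95448013-95450012 (Ngfr) and chr13:36825347-36827346 (Nrn1). Each window reaches 1 kb to either side of its outermost annotated start sites, so it holds upstream sequence and the first part of the transcript, and counts from several start sites within a window cannot be divided.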

How the data were processed

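The authors deposited counts: raw reads in promoter windows that reach 1 kb to either side of start sites (build mm9), not normalized, in a column for each of the 18 libraries. Per the submitters' processing notes, MACS2, Picard 1.88, Bowtie2, Trimmomatic 0.32 and bcl2fastq 2.16.0.10 were used. The counting program and its treatment of duplicates, multi-mapped reads and the Tn5 offset were not stated in the sources used here. Of 26728 entries, 663 repeated another entry's window and were left out.

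Counts were tested in edgeR 4.0.16 (R 4.3.3) with its quasi-likelihood F test, after TMM scaling and filterByExpr by group (minimum count 10, minimum total 15), in 3 fits: the 8 SOM+ libraries (25157 windows), the 10 bulk libraries (25196) and all 18 (25246). The fits with bulk libraries held labelled sex as a term. The Benjamini-Hochberg adjustment ran over all windows of each of 11 comparisons, and start site use was tested with diffSpliceDGE. SEs are the log2 difference over the square root of F. Levels come from the fit of all libraries. The fits were tested on simulated data.

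All windows of the 6 members were named in every comparison, and pathway genes only from fixed lists, with up to 3 per list and direction by smallest p. A listed gene that this rule would name is not reported here. A listed gene with several windows stands by the one with the highest mean count. The members and lists were chosen with earlier results of these data known. Alternatives were other scalings and filters, DESeq2 1.42.0, limma 3.58.1 on cyclic loess values, every entry kept, sex terms, a replicate block, and leaving out each library. Figures were drawn with matplotlib 3.10.9.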

Additional observations from a re-analysis of the deposited data

Results flagged for a closer look

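The difference between CeA and cortex itself differed between SOM+ control and bulk WT nuclei at 4 promoter windows, by an interaction term in the fit of all 18 libraries (edgeR). At Bdnf window 2 the region difference was more toward CeA in SOM+ nuclei by 1.12 log2 (adjusted p = 0.0149), at Bdnf window 3 by 1.60 (adjusted p = 0.0157), at Bdnf window 4 by 1.33 (adjusted p = 0.0379) and at Nrn1 by 1.36 (adjusted p = 0.00526). All 4 lost the call without cortex SOM+ control 2, and the 3 Bdnf windows lost it without the 4 libraries of discordant sex. Other single libraries mattered too. Bdnf windows 2 and 3 lost the call without CeA SOM+ control 2 or CeA WT 1, and Nrn1 lost it without CeA SOM+ control 1 or CeA WT 2. Window 2 also lost it without cortex WT 2 and window 3 without cortex WT 1. Window 4 kept it only where CeA SOM+ control 1 was the library left out. Over all alternatives the lowest log2 values were 0.87, 1.13, 1.03 and 1.03 in this order of windows.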

How the results depend on the processing

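Over the 33 called window results, 521 alternative values were computed: 429 kept direction and call, 92 kept direction without the call and 0 reversed. Counts of members called moved by over 1.5 times in these cases. Under total count scaling 1 Bdnf window passed the start site use test in SOM+ nuclei instead of 2. With sex taken from Y-linked promoters 1 passed it in bulk nuclei instead of 2. Without the 4 libraries whose Y-linked counts go against their label, an alternative chosen after seeing the data, 3 members were called between regions in bulk nuclei instead of 5, 1 passed in start site use instead of 2, 2 were called between SOM+ and bulk within CeA instead of 5, and 1 in the region difference between the kinds of nuclei instead of 4. Over all windows, that alternative called 645 instead of 4253, 1951 instead of 5865 and 2411 instead of 6229. With cyclic loess 3 were called between SOM+ and bulk within CeA.

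Leaving out each library in turn gave 5 to 8 members between regions in SOM+ nuclei (7 with all) and 3 to 6 in bulk (5 with all), 1 to 2 Bdnf windows in start site use in each, 2 to 3 between SOM+ and bulk within CeA (5) and 6 to 7 within cortex (8), 0 to 4 in the region difference between them (4), 0 to 1 for KO in cortex (0), and 0 to 0 in the rest. The cause was not tested, except that fewer samples were fitted. With 2 libraries in a group, the one left in is assumed to vary like the other groups.

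Replicate numbers were not used as pairs in the main fits. Within CeA, correlations of same-numbered deviations were -0.0117 (control and fear), and -0.198 and -0.329 (KO and WT). Within cortex they were 0.192 (control and fear), and 0.406 and -0.22 (KO and WT). Between CeA and cortex they were 0.129 (SOM+ control), 0.0434 (SOM+ fear), 0.38 (bulk WT) and -0.193, 0.263 and 0.0197 (bulk KO), where not every KO library correlated best with its own number. Nothing in the labels ties same-numbered libraries to shared mice, but KO 2 and WT 1 went against the labelled sex in both regions. Whether same-numbered libraries of CeA and cortex came from the same mice is undecided, and the main region tests took them as unpaired. With a replicate block, 1 Bdnf window passed in start site use in bulk nuclei instead of 2 and 3 members were called between SOM+ and bulk within CeA instead of 5 (1979 instead of 5865 of all windows). The block also called Ntrk2 between regions in bulk nuclei (0.49 log2, adjusted p = 0.0194) and Bdnf window 1 in the region difference between the kinds of nuclei (0.95 log2, adjusted p = 0.0349), and it did not call Bdnf window 3 (adjusted p = 0.146) and Ntf3 (0.12) within CeA or Ntrk2 (0.427) and Ngfr (0.0756) within cortex, SOM+ against bulk.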
